A study of Mus musculus with 14 samples.

Results

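The genes described here are 36 genes of protein folding in the endoplasmic reticulum (ER) and of the unfolded protein response, measured by RNA sequencing in mouse lens epithelial cells with and without TGFβ. They were chosen by name from the 40853 gene identifiers of the tables and sorted by what they are known to do. There are 7 sensors and regulators, 15 chaperones and disulfide isomerases, 9 genes of ER-associated degradation, and 5 genes of protein translocation and export. Each of the 36 had a mean of at least 1 TPM (a level scaled to transcript length and library total) over the 14 libraries and so stood among the 12927 genes tested. Creb3l1 passed that filter only through the line labelled WT-CREB.

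The cells were αTN4-1, a mouse lens epithelial line immortalised by a viral T antigen that was placed under a crystallin promoter. Stable lines were made for an empty vector (labelled Vector) and for 6 forms of the transcription factor CREB, of which 3 are without the S133A change (labelled WT-CREB, R314A-CREB and KCREB) and 3 carry it (labelled S133A-KCREB, S133A-CREB and S133A/R314A-CREB). KCREB is known as a mutant that cannot bind DNA, R314A changes a residue of the basic leucine zipper (bZIP), and S133A removes the site phosphorylated by protein kinase A. Each line is a single neomycin-selected culture that gave 1 control library and 1 library from cells kept for 24 h with 20 ng/mL TGFβ in medium without serum. Whether control cells also lacked serum is not given in the labels, and the effect of TGFβ cannot be told apart from that of serum withdrawal.

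Proteins that enter the secretory pathway fold in the ER with the help of chaperones and of enzymes that form disulfide bonds. When unfolded proteins pile up, the membrane sensors Ire1, Perk and Atf6 start the unfolded protein response: Ire1 splices the mRNA of Xbp1, Atf6 is cut free to act as a transcription factor, and Perk slows translation. The response raises chaperones, translocation and degradation genes, and secretory cells use it to enlarge their ER. TGFβ is known to make lens epithelial cells produce more extracellular matrix, which passes through this pathway.

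The libraries held 12545 to 13081 genes at 1 TPM or more. Relative depth, read as the commonest coverage per FPKM of a library, ranged from 5.05 to 10.08. Mitochondrially encoded genes took a median of 8.20% of TPM in the control and 6.75% in the TGFβ libraries. Creb1 itself was below the Vector line (20.8 TPM in control cells) in 4 of the 6 lines labelled for CREB, at 6.59 to 11.6 TPM, and above it only in KCREB (25.8 TPM) and S133A-KCREB (34.0 TPM). This value goes against the label of an overexpressed CREB in those 4 lines, so each is called by its label throughout. Whether reads of the constructs are counted under Creb1 in these tables is not given in the sources used here, so the value may not show the construct. With a single culture per line and treatment, the 7 differences within lines are the only replicates of the treatment.

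Most of the 36 genes were higher after TGFβ. With limma on log2(TPM + 1), the line as a block and Benjamini-Hochberg adjustment over all genes tested, 26 of the 36 rose, 1 fell (Creb3) and 9 did not pass the threshold of 0.05. Of all genes tested, 24.1% were called higher and 21.4% lower. The median difference of the 36 genes was 0.31 on the log2 scale, beside 0.02 for all genes tested, and 22 of the 36 were higher in each of the 7 lines, as were 2391 of the 12927 genes. The 3 Sec61 subunits, Ssr1 and Sec24d all rose, as did 5 of the 7 sensors and regulators and 11 of the 15 chaperones and isomerases. Only 5 of the 9 degradation genes did. In these bulk samples, fewer cells of a type and less RNA per cell cannot be told apart.

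**Figure D1:**
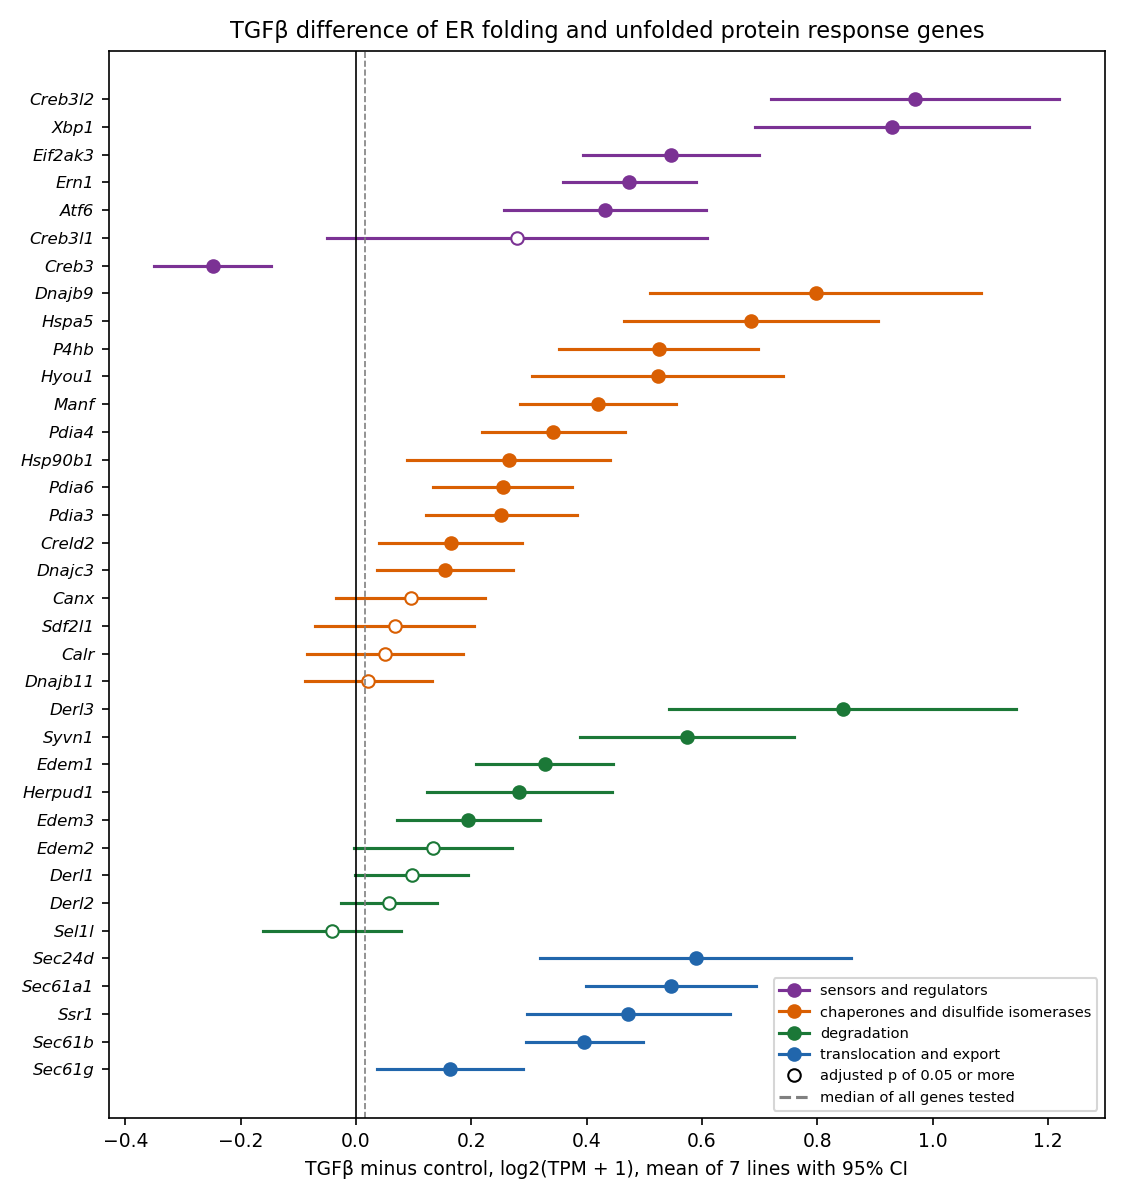
Mean TGFβ minus control difference of each of the 36 genes (x axis, log2(TPM + 1), 7 lines, bars are 95% confidence intervals), ordered by role and size; open points did not pass an adjusted p of 0.05 and the dashed line is the median of all genes tested. All 5 translocation and export genes lie above 0, while Creb3 alone has its whole interval below 0 (-0.25).

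Among the sensors, Ern1, the gene of Ire1, showed the cleanest separation. Its level was 22.0 to 28.3 TPM in the 7 control libraries (median 27.0) and 30.6 to 42.1 TPM in the TGFβ libraries (median 35.4). It was the only one of the 36 genes whose highest control library lay below its lowest TGFβ library, which held for 1.45% of all genes tested in that direction. Its difference was 0.47 ± 0.05 (log2, SE, n = 7 lines, limma adjusted p = 0.000269). Eif2ak3, the gene of Perk, went from a median of 25.2 TPM to 39.0 TPM and rose by 0.55 ± 0.07 (SE, limma adjusted p = 0.000445). Atf6 went from a median of 31.7 TPM to 51.5 TPM and rose by 0.43 ± 0.08 (SE, limma adjusted p = 0.00229), although its 2 libraries of the WT-CREB line were nearly level at 58.8 and 59.4 TPM. The genes of Ire1, Perk and Atf6 were thus each higher in all 7 lines.

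Xbp1 (chr11:5470641-5475993, plus strand, GRCm39), the transcription factor downstream of Ire1, had one of the highest differences among the 36 genes. In control cells it stood at 124 TPM in Vector, 62.9 in WT-CREB, 95.05 in KCREB, 77.5 in R314A-CREB, 72.7 in S133A-CREB, 103 in S133A-KCREB and 74.5 in S133A/R314A-CREB. After TGFβ it stood, in the same order, at 241, 85.1, 239, 157, 115, 180 and 191 TPM. Every line was higher after TGFβ, but the groups overlapped, because the treated WT-CREB and S133A-CREB libraries lay below the Vector control. The difference was 0.93 ± 0.11 (log2, SE, n = 7 lines, limma adjusted p = 0.000317), with the lowest value in WT-CREB (0.43) and the highest in S133A/R314A-CREB (1.34). The tables count the gene as a whole, so spliced and unspliced Xbp1 mRNA cannot be told apart.

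**Figure D2:**
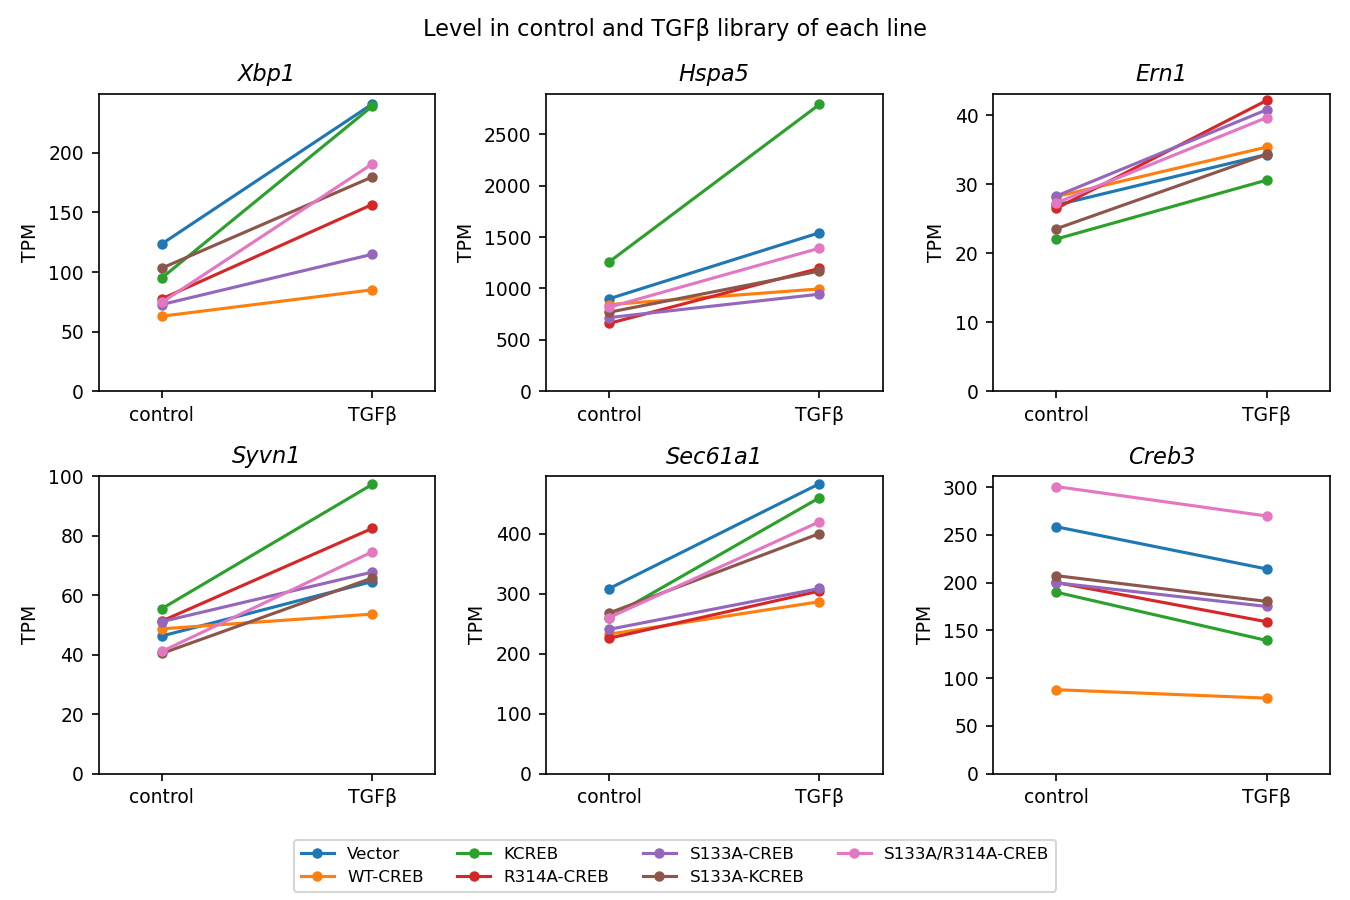
TPM (y axis, from 0) of 6 of the genes in the control and the TGFβ library of each of the 7 lines, joined by a line. Xbp1, Hspa5, Ern1, Syvn1 and Sec61a1 climb in every line, most steeply for Hspa5 in KCREB (1258 to 2792 TPM), while Creb3 declines in every line.

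The Creb3 genes encode membrane-bound transcription factors of the bZIP class that, like Atf6, are released by cleavage, and the 3 members measured here behaved differently. Creb3l2, known for its part in the secretory pathway of cartilage cells, had a median of 30.6 TPM in control and 59.9 TPM in TGFβ libraries and rose by 0.97 ± 0.11 (log2, SE, n = 7 lines, limma adjusted p = 0.000325). It was 1.68 higher in S133A/R314A-CREB and 0.62 to 1.02 higher in the other 6 lines. Creb3 fell by 0.25 ± 0.05 (SE, limma adjusted p = 0.0023) and was lower in all 7 lines. Its control levels ran from 87.9 TPM in WT-CREB to 301 TPM in S133A/R314A-CREB, a spread between lines far wider than the difference within any line.

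Creb3l1 (chr2:91812673-91854515, minus strand, GRCm39) was a gene of the WT-CREB line. It stood at 18.7 TPM in the control and 32.5 TPM in the TGFβ library of that line. In the other 12 libraries it was at most 0.664 TPM, and it is listed at 0 in 7 of them. The TGFβ difference over all lines did not pass the test (0.28 ± 0.15, SE, n = 7 lines, limma adjusted p = 0.15). That value depends on the pseudocount, at 0.14 with a pseudocount of 5 and 0.76 with 0.1.

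**Figure D3:**
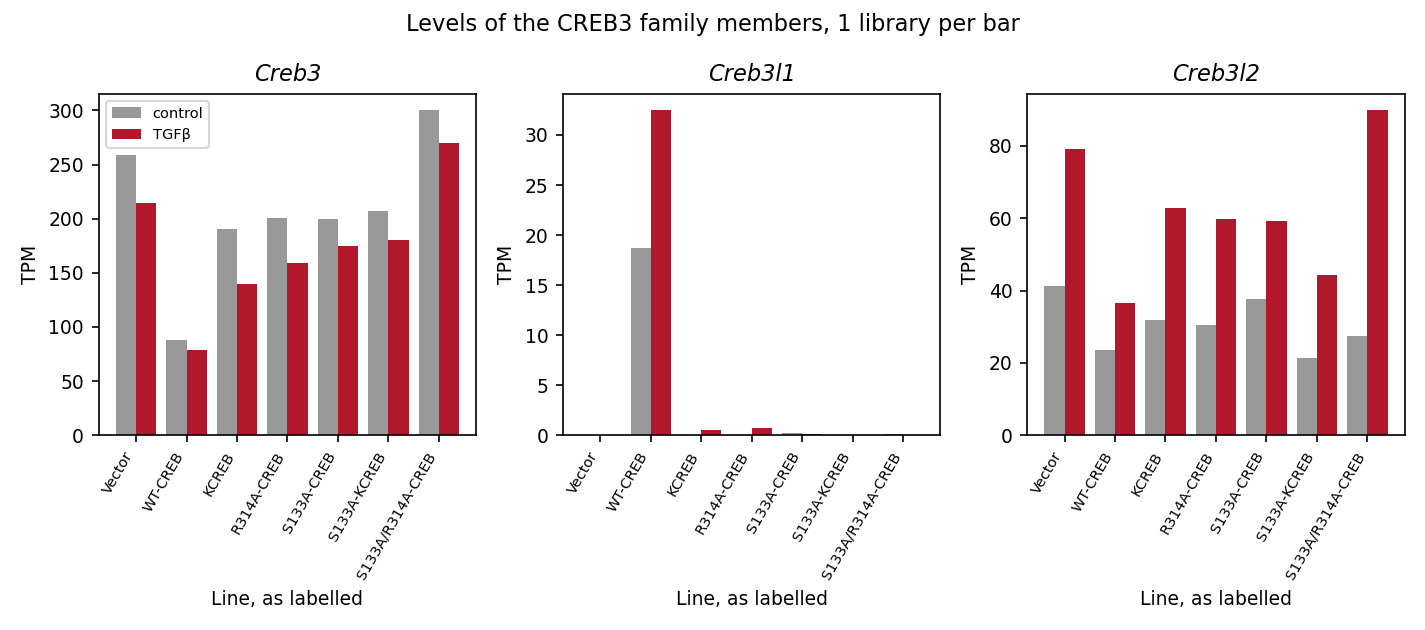
TPM (y axis, from 0) of Creb3, Creb3l1 and Creb3l2 in the control and TGFβ library of each line, 1 library per bar. Creb3l1 is present at more than 1 TPM only in WT-CREB, the line with the lowest Creb3, and Creb3l2 is higher with TGFβ in each line.

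Hspa5 (chr2:34662102-34666541, plus strand, GRCm39) encodes BiP, the Hsp70 chaperone of the ER that also holds the sensors inactive. In control cells it stood at 900 TPM in Vector, 843 in WT-CREB, 1258 in KCREB, 660 in R314A-CREB, 717 in S133A-CREB, 769 in S133A-KCREB and 817 in S133A/R314A-CREB. After TGFβ it stood, in the same order, at 1543, 996, 2792, 1196, 944, 1169 and 1392 TPM. KCREB was the highest line on each side, and its control library lay above 4 of the 7 treated libraries, so the groups overlapped. The difference was 0.68 ± 0.10 (log2, SE, n = 7 lines, limma adjusted p = 0.000817), from 0.24 in WT-CREB to 1.15 in KCREB.

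The helpers of BiP did not move as a block. Dnajb9, the co-chaperone also called ERdj4, went from a median of 36.6 TPM (29.3 to 56.7) to 63.7 TPM (39.6 to 114) and rose by 0.80 ± 0.13 (log2, SE, n = 7 lines, limma adjusted p = 0.00128). Hyou1, a large Hsp70 relative that exchanges the nucleotide of BiP, rose by 0.52 ± 0.10 (SE, limma adjusted p = 0.00256). Dnajc3, a co-chaperone also known as an inhibitor of Perk and related kinases, rose by only 0.15 ± 0.05 (SE, limma adjusted p = 0.0374). Dnajb11 (ERdj3) differed by 0.02, with a 95% confidence interval of -0.09 to 0.13, and its partner Sdf2l1 by 0.07, with an interval of -0.07 to 0.20. Neither passed the test, and Dnajb11 was lower than its control in KCREB (-0.24), the line where Hspa5 was highest. The sign of the Dnajb11 difference turned under quantile normalization (-0.00167).

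The disulfide isomerases rose together, by modest amounts. P4hb, a disulfide isomerase that is also the β subunit of the collagen prolyl 4-hydroxylase, went from a median of 611 TPM (557 to 687) to 880 TPM (621 to 1083) and rose by 0.53 ± 0.08 (log2, SE, n = 7 lines, limma adjusted p = 0.000882). Pdia4 rose by 0.34, Pdia6 by 0.25 and Pdia3 by 0.25, each higher in all 7 lines. Pdia3 works with the lectin chaperones calreticulin and calnexin, which bind the sugar chains of folding glycoproteins. Their genes did not pass the test: Calr differed by 0.05 (95% confidence interval -0.08 to 0.19) and Canx by 0.09 (interval -0.03 to 0.22). Calr was already among the most abundant of the 36 genes in control cells, at 1006 to 1291 TPM, and was higher after TGFβ in 3 lines and lower in 4. Hsp90b1 (Grp94, the Hsp90 of the ER) was as abundant, at 876 to 1187 TPM in control cells, and rose by 0.26 ± 0.08 (SE, limma adjusted p = 0.021).

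Manf, an ER protein that binds BiP and can be secreted, rose by 0.42 ± 0.06 (log2, SE, n = 7 lines, limma adjusted p = 0.000815), from a median of 318 TPM to 441 TPM. Creld2, another ER protein known to be induced by ER stress, rose by 0.16 ± 0.06 (SE, limma adjusted p = 0.0362). The calls of Creld2, Dnajc3 and Hsp90b1 lay near the threshold. With all libraries kept, each was lost with no filter on low values and under the signed-rank test. With 7 lines that test called a gene only where all 7 shared a sign, and each of these genes was lower in 1 line. Its outcome thus restates the signs. The calls of Creld2 and Dnajc3 were also lost under median-of-ratios scaling, quantile normalization, TPM without mitochondrially encoded genes, FPKM and no trend. They were lost in 12 and 13 of the 19 alternatives with the line block. That of Creld2 was lost without Vector, KCREB, R314A-CREB or S133A/R314A-CREB (limma adjusted p of 0.0834, 0.0674, 0.0635 and 0.0795). That of Dnajc3 was lost without KCREB, R314A-CREB, S133A-CREB, S133A-KCREB or S133A/R314A-CREB (0.0656, 0.0874, 0.0808, 0.0783 and 0.0983), and that of Hsp90b1 without S133A/R314A-CREB (0.0514).

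Many genes of this response carry an ER stress response element (ERSE) near their start, a pair of boxes bound by NF-Y and by Atf6 or Xbp1. RefSeq promoters of build GRCm38.p6, from 250 bases before to 50 after the transcript start, were found for 30 of the 36 genes, and were searched on both strands. The element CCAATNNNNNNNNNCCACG stood in 9 of these 30 genes (Calr, Canx, Creld2, Derl3, Dnajc3, Hsp90b1, Hspa5, Pdia6 and Syvn1) and in 39 of all 32851 promoters, or 0.119%. These genes were chosen as members of the response, so this says what the list holds and nothing of what acted on it here. The promoters of Hspa5 and Calr are shown because each has 1 such element, while Hspa5 rose and Calr did not pass the test. They are not otherwise matched. The element lies 65 to 47 bases before the start in Hspa5 and 162 to 144 bases before it in Calr. The 250 bases before each start are printed 5′ to 3′ in the direction of the gene, with the boxes of the element in capitals. Calr holds the element on the opposite strand, so its boxes read CGTGG and ATTGG.
Hspa5, chr2:34771840-34772089, plus strand: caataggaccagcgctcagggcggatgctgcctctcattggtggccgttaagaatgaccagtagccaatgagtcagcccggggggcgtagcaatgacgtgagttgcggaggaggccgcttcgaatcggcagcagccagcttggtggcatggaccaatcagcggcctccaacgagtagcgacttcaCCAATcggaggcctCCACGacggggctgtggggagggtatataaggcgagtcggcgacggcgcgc
Calr, chr8:84846932-84847181, minus strand: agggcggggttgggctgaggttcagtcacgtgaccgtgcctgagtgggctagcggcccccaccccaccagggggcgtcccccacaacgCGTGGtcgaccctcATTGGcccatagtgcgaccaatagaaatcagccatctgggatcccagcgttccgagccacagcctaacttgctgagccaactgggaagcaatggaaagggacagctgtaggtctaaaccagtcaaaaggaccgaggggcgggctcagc

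The elements of the other genes are shown with 10 bases on each side, to let the boxes and their spacing be compared between genes with high and low differences.
Syvn1, chr19:6046532-6046550: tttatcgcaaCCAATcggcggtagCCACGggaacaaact
Derl3, chr10:75893242-75893260: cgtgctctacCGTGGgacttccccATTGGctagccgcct
Pdia6, chr12:17266491-17266509: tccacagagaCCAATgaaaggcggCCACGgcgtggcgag
Creld2, chr15:88819520-88819538: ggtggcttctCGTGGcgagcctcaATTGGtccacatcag
Dnajc3, chr14:118937827-118937845: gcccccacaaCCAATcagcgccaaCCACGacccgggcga
Canx, chr11:50325800-50325818: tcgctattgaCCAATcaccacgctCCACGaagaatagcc
Hsp90b1, chr10:86705638-86705656: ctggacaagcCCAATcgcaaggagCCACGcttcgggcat
Hsp90b1 has another on the opposite strand nearer its start. Derl3 and Creld2 carry theirs on the opposite strand. The element lay between 26 bases (Syvn1) and 212 bases (Hsp90b1) before the start. Of the 9 genes, 7 rose and Calr and Canx did not pass the test, with TGFβ differences from 0.05 to 0.84.

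The shorter element ERSE-II, ATTGGNCCACG, has its boxes closer together, its CCACG box is also part of the ERSE, and it stood in 2 members and in 0.0365% of all promoters. It lay 52 bases before the start of Herpud1 (higher by 0.28) and, in Dnajb11 (not called), just after the start.
Herpud1, chr8:94386377-94386387: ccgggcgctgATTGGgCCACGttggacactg
The Xbp1-bound core TGACGTGG was found in Sec24d alone of the 30 genes (0.676% of all promoters).
Sec24d, chr3:123267470-123267477: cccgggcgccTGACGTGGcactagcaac
The full cAMP response element TGACGTCA, to which CREB binds, was in none of the 30 windows and in 1.79% of all promoters. Of the 11 genes with an ERSE or ERSE-II, 8 rose, with a median difference of 0.25. Of the 19 genes with neither, 14 rose and 1 fell, with a median of 0.34. A match is a run of letters and was not tested as a binding site. Any window, with a match or without, can hold variants that these letters miss.

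Degradation genes were split. Syvn1, the ubiquitin ligase Hrd1 at the centre of ER-associated degradation, went from a median of 48.7 TPM (40.4 to 55.5) to 67.8 TPM (53.7 to 97.3) and rose by 0.57 ± 0.08 (log2, SE, n = 7 lines, limma adjusted p = 0.000824). Its membrane partner Sel1l differed by -0.04, with a 95% confidence interval of -0.16 to 0.08, and was lower in 5 of 7 lines. Herpud1, which helps to assemble the ligase complex, rose by 0.28 ± 0.07 (SE, limma adjusted p = 0.0104).

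The Edem genes encode mannosidase-like proteins that mark misfolded glycoproteins for removal. Edem1 rose by 0.33 ± 0.05 (log2, SE, n = 7 lines, limma adjusted p = 0.00131) and Edem3 by 0.20 ± 0.06 (SE, limma adjusted p = 0.0177). Edem2 differed by 0.13 (95% confidence interval -0.003 to 0.27) and did not pass the test. The call of Edem3 was lost under the signed-rank test and without S133A/R314A-CREB (limma adjusted p = 0.0503). Edem2 gained a call without WT-CREB (limma adjusted p = 0.0405). The derlins are membrane proteins through which substrates leave the ER. Derl3 was scarce, at 0.779 to 2.34 TPM in control and 1.71 to 6.78 TPM in TGFβ libraries, and rose by 0.84 ± 0.13 (SE, limma adjusted p = 0.00124). This size depends on the pseudocount, at 0.39 with a pseudocount of 5. Derl1 (0.10, interval -0.002 to 0.19) and Derl2 (0.06, interval -0.03 to 0.14), each more than 10 times as abundant, did not pass the test. Derl2 was higher in all 7 lines by small amounts and so passed the exact signed-rank test (adjusted p = 0.0455). The smallest p of that test over 7 lines is 0.015625, so this pass restates the shared sign and says nothing of size.

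All 5 genes of translocation and export rose. Sec61a1, the channel subunit of the translocon, went from a median of 260 TPM (226 to 309) to 400 TPM (287 to 484) and rose by 0.55 ± 0.07 (log2, SE, n = 7 lines, limma adjusted p = 0.000384). The small subunit Sec61b rose by 0.40 ± 0.04 (SE, limma adjusted p = 0.000313) with 0.20 to 0.50 in the single lines, among the narrowest ranges of the 36 genes. The other small subunit, Sec61g, rose by 0.16 ± 0.06 (SE, limma adjusted p = 0.0395). Its call was lost without Vector, WT-CREB, R314A-CREB or S133A/R314A-CREB (limma adjusted p of 0.105, 0.0863, 0.0843 and 0.078). With all libraries kept, it was lost with no filter, no trend, median-of-ratios scaling, quantile normalization, TPM without mitochondrially encoded genes and the signed-rank test. It was lost in 11 of the 19 alternatives with the line block. Ssr1, a subunit of the translocon-associated protein complex, rose by 0.47 ± 0.08 (SE, limma adjusted p = 0.00152). Sec24d, a cargo-binding subunit of the COPII coat that carries procollagen out of the ER, went from a median of 62.0 TPM (32.7 to 76.2) to 85.6 TPM (57.2 to 124) and rose by 0.59 ± 0.12 (SE, limma adjusted p = 0.00393). Its single lines ranged from 0.06 in WT-CREB to 1.09 in KCREB.

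The lines differed in how far the genes moved. With 1 library a side there is no test within a line, so members at least 1.5-fold higher, on the log2(TPM + 1) scale, are counted beside the share of all genes tested. KCREB had 16 of the 36 genes past that size (10.8% of all genes), R314A-CREB 11 (7.1%), S133A/R314A-CREB 11 (6.12%) and Vector 9 (7.29%). S133A-KCREB had 7 (6.3%), S133A-CREB 4 (4.14%) and WT-CREB 3 (2.87%). No gene of the 36 was 1.5-fold lower in any line, beside 403 (WT-CREB) to 1389 (KCREB) of the 12927 genes tested. The lines with few members past 1.5-fold were also those with few genes of any kind past it. The 3 genes past it in WT-CREB were Creb3l1, Creb3l2 and Derl3. Of these, Creb3l1 passed the filter only through its level in this line, and Derl3 was low there (1.19 TPM in control and 2.89 TPM after TGFβ). The counts of KCREB and R314A-CREB each include Creb3l1 near the floor, where it went from 0 to 0.513 TPM and from 0 to 0.664 TPM.

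The median difference of the 36 genes was 0.52 in KCREB, 0.41 in R314A-CREB, 0.35 in S133A/R314A-CREB, 0.34 in Vector, 0.27 in S133A-KCREB, 0.16 in S133A-CREB and 0.12 in WT-CREB. Over all genes tested the 7 medians lay between -0.01 and 0.05. KCREB had the highest difference for 20 of the 36 genes, and WT-CREB the lowest for 17 and S133A-CREB for 8. The same ranks were not counted over all genes. KCREB also had the largest share of all genes at least 1.5-fold higher (10.8%), and WT-CREB (2.87%) and S133A-CREB (4.14%) the smallest. Summed over the 36 genes, TPM after TGFβ was 1.54 times the control in KCREB and 1.09 times in WT-CREB, and the chaperones and isomerases made up most of each sum. As a share of all TPM the 36 genes took 0.736% to 0.940% in control and 0.801% to 1.43% in TGFβ libraries.

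**Figure D4:**
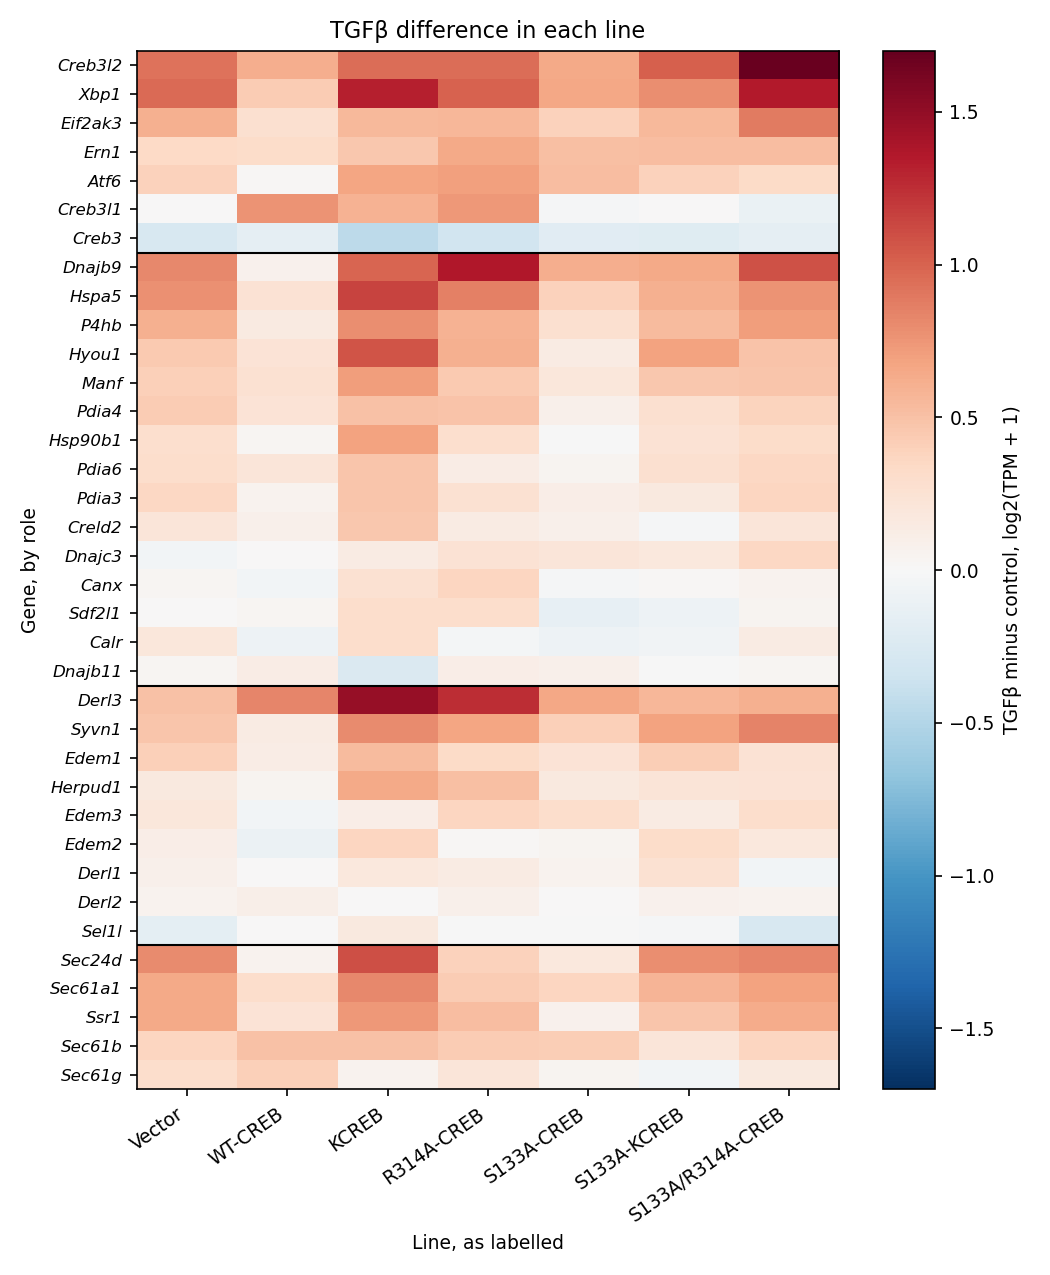
TGFβ minus control difference (colour, log2(TPM + 1)) of each of the 36 genes in each of the 7 lines, 1 library a side, with black lines between the roles. KCREB is the highest of the 7 columns for Hspa5 (1.15) and Hyou1 (1.07) and the lowest for Dnajb11 (-0.24), the WT-CREB and S133A-CREB columns are pale for most rows, and Creb3 is blue throughout.

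**Figure D5:**
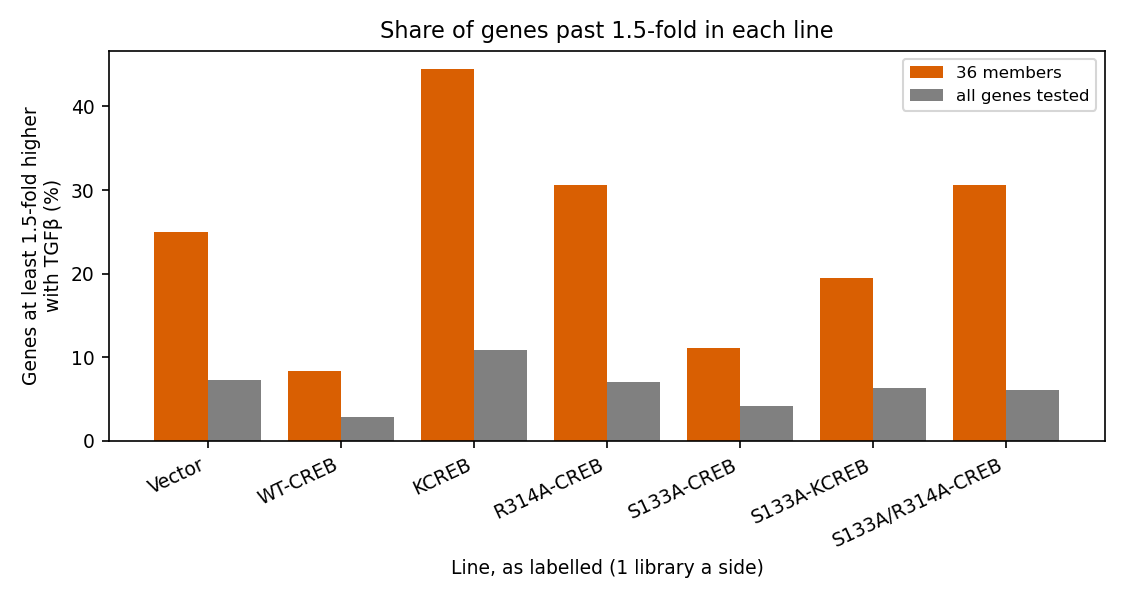
Share of the 36 genes (orange) and of all 12927 genes tested (grey) that were at least 1.5-fold higher with TGFβ in each line, 1 library a side. The orange bar is the taller in each line, at 44.4% against 10.8% in KCREB and 8.33% against 2.87% in WT-CREB. The orange bars of KCREB and R314A-CREB include Creb3l1, which was near the floor in both lines. The orange bar of WT-CREB also includes Creb3l1, which passed the filter only through that line.

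Several members followed Hspa5 from line to line. Over the 7 within-line differences, Pearson's r with Hspa5 was 0.94 for P4hb, 0.94 for Hsp90b1, 0.93 for Pdia3, 0.92 for Manf and 0.90 for Xbp1, the 5 highest values among the members. It was above 0.8 for 15 of the other 35 members (42.9%) and for 5.53% of all genes, and the median r was 0.73 against 0.09. Creb3 (-0.84) and Dnajb11 (-0.73) ran opposite to Hspa5. The order differed by rank: Spearman's rho was highest for Pdia4 (0.96) and Canx (0.93), with 0.79 for Xbp1 and 0.68 for Manf. All of these values share the same 7 pairs of libraries, whose overall size of response differed, so they are given as a description.

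Construct effects were fitted over the 6 lines labelled for CREB, each counted as 1 value, with the S133 state and the bZIP state (intact, K or R314A) as additive terms and 2 residual degrees of freedom. With limma, none of the 36 genes and 0% of all genes passed the adjusted threshold for any of the 3 effects on levels or of their 3 interactions with TGFβ. At an unadjusted limma p under 0.05, 11 of the 36 genes had an R314A interaction with TGFβ (6.41% of all genes). There were 9 for K (10.8%) and 2 for S133A (3.52%). For levels there were 7 genes for K (10.1%), 4 for R314A (6.35%) and 2 for S133A (5.83%). The S133A level count is near the share of all genes, and no dependence on a construct is called from these counts. The 11 and the 9 include Hspa5, Hyou1, P4hb, Syvn1, Ssr1 and Sec24d, in each case with the larger TGFβ difference in the mutant lines. Both contrasts are taken against the same WT-CREB and S133A-CREB lines, where the differences were small. Hyou1, for example, differed by 0.69 ± 0.13 (log2, SE) more in the K lines than in the lines with intact bZIP, with a limma adjusted p of 0.293. The 2 K lines are also the only ones labelled for CREB whose Creb1 was above Vector, so the K state and the Creb1 level cannot be told apart.

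The median interaction of the 36 genes was 0.24 for K (0.05 over all genes), 0.22 for R314A (0.001) and -0.05 for S133A (-0.02). For levels the medians were 0.20 for K (-0.03), 0.17 for R314A (-0.02) and 0.06 for S133A (0.01).

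Against the Vector line, which is shared by the 6 comparisons and has 1 library a side, the 36 genes were mostly lower in control cells. In WT-CREB 30 of the 36 were below Vector, with a median of -0.38 on the log2 scale, while 50.8% of all genes were. The median was -0.30 in R314A-CREB, with 31 genes below Vector beside 47.3% of all genes. It was -0.20 in S133A/R314A-CREB (22 genes, 49.99% of all) and -0.19 in S133A-KCREB (29 genes, 54.1% of all). It was -0.13 in S133A-CREB (24 genes, 43.9% of all) and -0.11 in KCREB (25 genes, 54.9% of all). After TGFβ the medians were -0.55 in WT-CREB, -0.34 in S133A-CREB, -0.27 in R314A-CREB, -0.22 in S133A-KCREB, 0.01 in S133A/R314A-CREB and 0.06 in KCREB. Xbp1 had the lowest value in treated WT-CREB (-1.49) and Creb3 in control WT-CREB (-1.55).

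Other genes of the same pathways, taken from lists, were counted in the same limma fit. In it 24.1% of all genes were called higher and 21.4% lower. The lists were chosen with earlier results of these data known, and the genes named were picked by their p or because they fell. Of 8 genes of the proteases that cut Atf6 and of Perk outputs, 6 rose and none fell. Atf4, the transcription factor translated when Perk acts, rose by 0.39 ± 0.05 (log2, SE, n = 7 lines, limma adjusted p = 0.000628), Trib3 by 0.72 ± 0.13 and Chac1 by 0.62 ± 0.12. Of 20 genes of the COPII coat and its cargo receptors 16 rose and none fell, including Mia2 (0.40), Sec23b (0.39) and Sec13 (0.34). Of 17 further translocon, signal peptidase and signal recognition genes 12 rose and none fell, including Srprb (0.40), Spcs2 (0.37) and Sec63 (0.29).

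The remaining lists were more mixed. Of 24 further ER chaperones and oxidoreductases 10 rose and Sil1, an exchange factor of BiP, fell (-0.23), with Hspa13 at 0.47, Fkbp11 at 0.94 and Ero1b at 0.41. Of 18 further degradation genes 4 rose (22.2%, near the share of all genes), among them Ube2g2 (0.43) and Selenos (0.44). Ngly1, the enzyme that strips sugar chains from proteins in the cytosol, fell (-0.59). Of 10 subunits of the oligosaccharyltransferase, which attaches those chains, 4 rose, among them Ostc (0.32) and Krtcap2 (0.34), and Tusc3 fell by 0.35. Of 12 collagen folding enzymes 6 rose and 3 fell, Crtap (-0.41), P4ha1 (-0.32) and P3h4 (-0.25). Plod2, a collagen lysyl hydroxylase, rose by 0.97 ± 0.14 (SE, limma adjusted p = 0.000802), P4ha2, the catalytic partner of P4hb, by 0.73 ± 0.08 and the collagen chaperone Serpinh1 by 0.61 ± 0.07. Of 5 mRNAs known to be cut by Ire1, Bloc1s1 (-0.49), Col6a1 (-0.84) and Hgsnat (-0.24) fell and Pdgfrb rose (0.47).

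Markers of lens epithelium moved the other way. Of 12 such genes 8 were tested and 6 of them fell, including Sox2 (-1.14), Cryab (-1.02) and Pax6 (-0.36). Foxe3 and Pitx3, transcription factors of lens epithelium, the epithelial cadherin Cdh1, and Bfsp1, which stood in the list although it is a lens fiber gene, had a mean under 1 TPM. The summed level of the 12 was 577 to 2505 TPM in control and 458 to 909 TPM in TGFβ libraries. Of 10 plasma and B cell markers 9 had a mean under 1 TPM, with Cd79b at 0 throughout. Their sum was 41.4 to 114 TPM in control and 67.1 to 160 in TGFβ libraries, almost all of it Sdc1, which rose by 0.49.

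Of 9 macrophage markers 4 were tested, of which 3 rose (Cd68, Csf1r and Fcer1g, all under 6 TPM on average in either group) and Lyz2 fell. Adgre1 and Tyrobp were at 0 throughout, and the sum was 26.1 to 89.7 TPM in control and 18.0 to 48.8 in TGFβ libraries. Muscle markers summed to 13.4 to 117 TPM in control and 87.8 to 214 in TGFβ libraries, where Tnnt2 rose by 1.69 and Des fell by 0.44, with Myod1 and Myog at 0. Of the 8 neuron and retina markers only Tubb3 was tested, and it rose by 1.67, with a summed level of 0.158 to 7.53 TPM in control and 0.338 to 71.7 in TGFβ libraries. Endothelial markers summed to at most 5.15 TPM and pigment cell markers to at most 24.98 TPM, with Dct at 0. The part of these shifts in the rise of the ER genes was not tested.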

How the data were processed

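RNA was measured in 14 libraries of 7 αTN4-1 lines, each with 1 control and 1 TGFβ library, grouped by the sample titles. The authors deposited 1 gene table per library, laid out like StringTie's gene abundance output. Per the file headers it gives TPM, FPKM and coverage for each gene. The submitters' processing notes name STAR 2.7.6a, StringTie 2.0.4, edgeR and build GRCm39, without their roles. The tables hold no read counts, so depth was judged from the ratio of coverage to FPKM. Library strandedness is not given in the sources used here.

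TPM values sharing a gene identifier were summed, taken as log2(TPM + 1), and tested for the 12927 genes whose mean TPM reached 1. This scale understates changes of low genes. The fit (limma 3.58.1, R 4.3.3) had an intensity trend and the line as a block, two-sided, adjusted by Benjamini-Hochberg at 0.05, and was tested on simulated data. The line label pairs its 2 libraries, whose deviations from the treatment means correlated with r of 0.614 to 0.845, against at most 0.275 between lines. Replicates are cultures of different lines, so p-values of the TGFβ fit measure how far the within-line difference varied between lines. They do not measure the spread of levels between lines, which the block takes out.

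The members, the other gene lists and the alternatives were chosen with earlier results of these data known. Every member is named, and of each other list up to 3 genes with the smallest p. Genes of those lists that fell were named after their values were seen. Promoters are from RefSeq on GRCm38.p6, whose coordinates are not comparable with those of the tables. As alternatives, the pseudocount was set to 0.1 or 5, the filter was dropped or raised to 5 TPM, and TPM was rescaled by median of ratios, by quantiles or without mitochondrially encoded genes, or replaced by FPKM. The trend or the block was dropped, a signed-rank test was run, the largest line of a file per identifier was used, and each line was left out. Levels were also fitted in libraries of 1 treatment. A fit restricted to lines with at least Vector's Creb1 was added after the data were seen.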

Additional observations from a re-analysis of the deposited data

Results flagged for a closer look

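In each set of 7 libraries or 7 within-line differences, a value was noted when its gap to the nearest other value took more than 0.568 of the whole range. Of 108 sets, 7 were noted, and chance gives about 1 in 20. Creb3l1 in the WT-CREB line stood apart with 18.7 TPM in control cells (0 to 0.174 TPM in the other 6 lines) and 32.5 TPM after TGFβ (0 to 0.664). Hspa5 in KCREB stood apart with 1258 TPM in control cells (660 to 900 in the others) and 2792 TPM after TGFβ (944 to 1543). The TGFβ difference of Creb3l2 was 1.68 in S133A/R314A-CREB against 0.62 to 1.02 in the others, and that of Dnajb11 was -0.24 in KCREB against -0.01 to 0.12. Edem3 stood at 41.2 TPM in S133A/R314A-CREB control cells against 31.2 to 34.7 TPM.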

How the results depend on the processing

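Without the line block (7 control against 7 TGFβ libraries, no pairing), 9 of the 36 genes were called higher and 0 lower, against 26 and 1 with the block. The share of all genes called was 24.1% higher and 21.4% lower with the block. It is not given here for the fit without the block, so those 9 genes cannot be set against it. In the other alternatives of the TGFβ fit 20 to 26 genes were called higher and Creb3 lower in each, and the median difference stayed between 0.26 and 0.38. With no filter, for example, 22 members were called higher beside 2851 of all 27865 genes. Under median-of-ratios scaling there were 23 beside 2832 of 12915. Leaving out each line in turn gave 21 to 26 genes higher. Of the 26 genes, 20 kept their call in every alternative with the block in which they were tested (Derl3 in 17 of 19, since it was below the 5 TPM filter and the FPKM filter), and 9 kept it without the block. Those that lost it in some were Dnajc3, Creld2, Sec61g, Hsp90b1, Edem3 and Herpud1, the last only in the 3 lines with at least Vector's Creb1. The difference of Dnajb11, not called, turned to -0.00167 under quantile normalization and to -0.0694 in those 3 lines, and the cause was not tested. For the construct effects the number of members called was 0 in each alternative, except that leaving out each line gave 0 to 1 for the K level and 0 to 1 for the R314A level, the 1 being Creb3l1 without S133A-CREB. WT-CREB is then the only line with intact bZIP, so that call restates the level of Creb3l1 in WT-CREB and says nothing of the constructs. Among the 9 genes not called, Edem2 and Derl2 gained a call in 1 alternative each. Precision is limited by 1 library per line and treatment, 2 residual degrees of freedom for constructs, and tables without counts, in which a value of 0 can be a failed estimate.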
